A study of Homo sapiens with 15 samples.

Results

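Expression of 10 genes that are used to describe glioma stemness and glial differentiation was examined in U87MG cells: NES, SOX2, SOX4, SOX9, CD44, VIM, GFAP, S100B, MBP and CNP. These are the rows of the expression table with those 10 symbols, each listed once among 25737 rows. U87MG is an established line of malignant glioma-derived cells, labelled as brain. RNA was collected after 24 h with lentivirus, either the control virus for GFP or a virus made to overexpress ID1, ID2, ID3 or ID4, with 3 libraries in each of the 5 groups. The GFP cells carried the control genotype, all 15 libraries came from the same line and all had received lentivirus, so by their labels the groups differed only in the sequence that the virus carried. The promoter of these vectors, the share of cells that took up virus and whether the 3 libraries of a group came from separate cultures were not given in the sources used here. Of the 10 genes, 7 were detected (NES, SOX4, SOX9, CD44, VIM, MBP and CNP), taken as 10 or more counts in all 3 libraries of at least 1 group. The other 3, SOX2, GFAP and S100B, never exceeded 4 counts in a library.

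Glioma stem cells are described by genes that neural stem cells use. SOX2 is a transcription factor that keeps neural progenitors undifferentiated, SOX9 directs progenitors toward glia and away from neurons, and SOX4 acts during neural development and in signaling by transforming growth factor beta. NES encodes nestin and VIM encodes vimentin, the intermediate filament proteins of immature cells, and CD44 is a surface receptor for hyaluronan that marks mesenchymal-like glioma cells. GFAP, the filament protein of astrocytes, and S100B, a calcium-binding protein of astrocytes, stand for astrocytic maturation. MBP, a structural protein of compact myelin, and CNP, an enzyme of myelinating cells, stand for the oligodendrocyte line. The ID proteins dimerize with basic helix-loop-helix factors and keep them from binding the E-box, whose letters are CANNTG, and they are known as inhibitors of differentiation in neural and many other progenitors.

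Total counts were 11089044 to 15148979 per library, so that 3 counts, used as the floor of detection, equalled 0.198 to 0.271 CPM (the count scaled to a library total of 1e+06). Floors and counting intervals cover counting error only. ID4 had 1, 2 and 0 counts in GFP and 2479 to 3110 counts under the ID4 label, and ID3 was 221 CPM in GFP against 313 CPM under its own label. ID1 and ID2 did not exceed GFP under their own labels: ID1 was 344 ± 6.96 CPM in GFP and 250 ± 3.60 CPM under the ID1 label (SD, n = 3 each), and ID2 was 85.7 CPM in GFP and 44.9 CPM in those labelled ID2. Groups are therefore named by label throughout, and each direction below is that of the label. ID2 replicate 3 stood apart from the other 2 ID2 libraries, with a chi-square per gene of 10.9 and 11.4 against 2.25 to 5.30 for every other pair within a group. Of 8 markers of blood cells and endothelium, none was detected by the rule above. HBB reached 18 counts in a library, with a mean of 0.440 CPM under ID3 and 0 in GFP.

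Because the ID proteins act through factors that bind E-boxes, the 250 bases before the start of SOX4 and of MBP are shown here. Both had an entry in the RefSeq promoter table (build GRCh38.p14), and their libraries lay apart from GFP under all 4 ID labels. CD44 met these conditions as well, and its stretch, not printed, held 0 matches to CANNTG. The NES and VIM stretches also held 0, the CNP starts held 0 and 1, and the SOX2 stretch held 1. The table held 7 of the 10 members, and had no entry for SOX9, GFAP or S100B. Capitals mark each CANNTG match, a pattern that reads the same on both strands. The SOX4 stretch is chr6:21593501-21593750 on the plus strand. The MBP stretches lie before 2 separate starts of the gene, at chr18:77132784-77133033 and chr18:77017056-77017305, both on the minus strand.
SOX4: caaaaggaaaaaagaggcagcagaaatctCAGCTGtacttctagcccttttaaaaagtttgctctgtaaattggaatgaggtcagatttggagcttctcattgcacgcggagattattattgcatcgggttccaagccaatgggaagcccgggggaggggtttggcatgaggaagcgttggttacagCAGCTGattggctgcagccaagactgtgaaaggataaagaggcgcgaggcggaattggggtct
MBP upstream start: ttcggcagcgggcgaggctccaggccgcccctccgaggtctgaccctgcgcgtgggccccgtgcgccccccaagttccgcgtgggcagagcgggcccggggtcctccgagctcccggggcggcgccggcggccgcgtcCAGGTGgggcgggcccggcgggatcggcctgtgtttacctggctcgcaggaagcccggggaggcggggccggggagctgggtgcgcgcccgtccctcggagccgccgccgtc
MBP downstream start: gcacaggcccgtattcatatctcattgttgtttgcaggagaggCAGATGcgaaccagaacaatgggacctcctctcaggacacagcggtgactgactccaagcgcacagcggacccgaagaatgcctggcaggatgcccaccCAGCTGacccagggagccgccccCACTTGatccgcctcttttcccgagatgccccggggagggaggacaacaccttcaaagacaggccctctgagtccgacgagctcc
SOX4 held 2 matches, and the MBP starts held 1 and 3. Of all 35116 stretches of the same length in the table, 61.8% held at least 1 match, 28.3% at least 2 and 10.4% at least 3, so that matches of this kind are common. A match is a description of the letters and not a site of binding. The MBP stretches also differed in base composition, with 80.4% G and C before the upstream start and 60.4% before the downstream one, against 48.8% for SOX4.

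The detected genes showed 3 kinds of pattern across the labels. SOX9 and MBP were lower than in GFP under all 4 ID labels, SOX4 had more counts in every ID library than in any GFP library, and NES, CD44, VIM and CNP varied by little. All comparisons used the quasi-likelihood test of edgeR, and an adjusted p is the Benjamini-Hochberg value over 12870 genes, those in the upper 50% of all rows by mean deposited log2 value, and the 4 comparisons with GFP share the same 3 GFP libraries. The 7 detected members entered this test. SOX4 entered it only through the ID groups, since its mean deposited log2 value in GFP was 1.84, below the limit of 3.22, so a difference was built into its passing. It is left out of the following counts, and its values against GFP are given without a test. Of the other 6 members, 3 were lower under the ID1 label and none was higher, while 22.1% of all tested genes were called there, 9.73% lower and 12.4% higher. Under ID2, 1 was higher and 3 were lower, with 35.1% of all genes called, 16.7% lower and 18.5% higher. Under ID3, 3 were lower, with 28.6% of all genes called, 13.5% lower and 15.1% higher. Under ID4, 2 were lower, with 21.6% of all genes called, 9.51% lower and 12.1% higher. The 536 genes that were lower under all 4 labels, SOX9 and MBP among them, made up 4.16% of those tested, and the 786 that were higher under all 4 made up 6.11%.

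**Figure D1:**
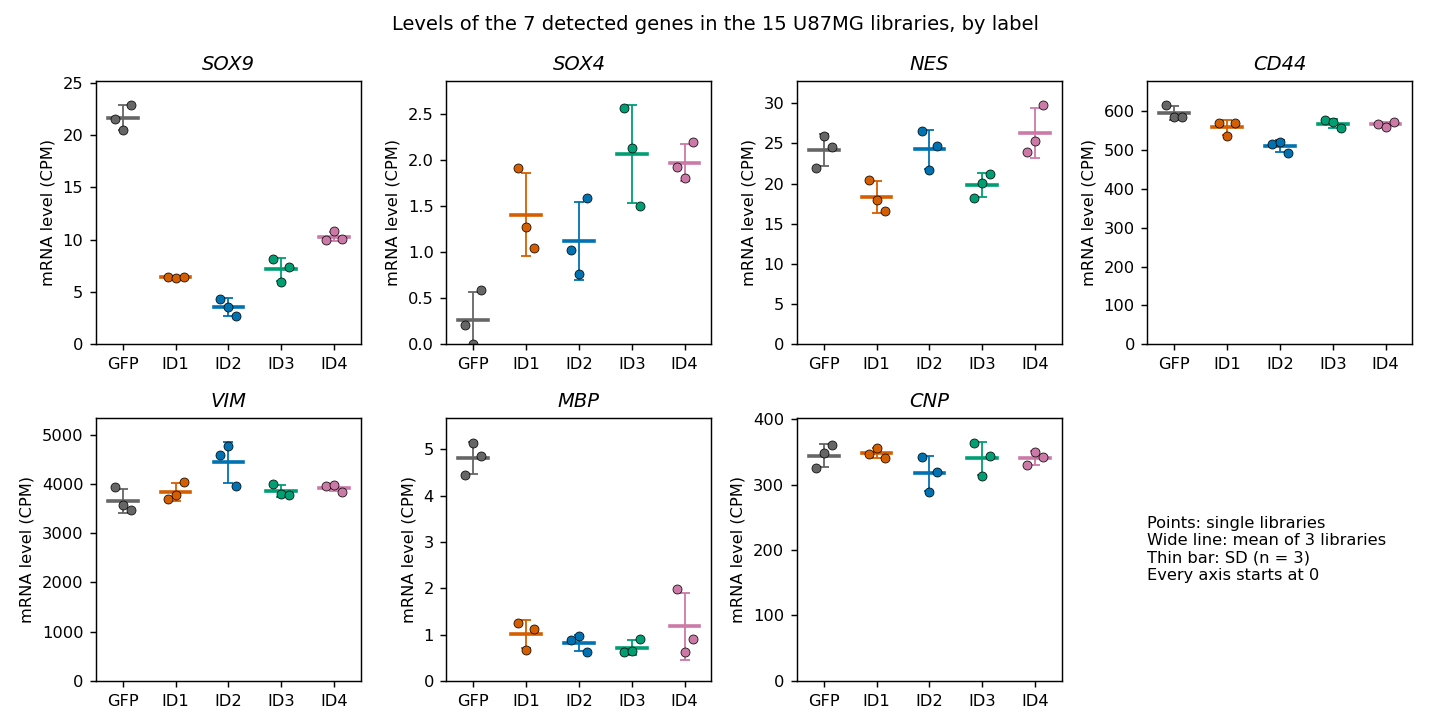
mRNA level of the 7 detected genes in CPM (vertical axes, each starting at 0 and scaled to its own gene) in the 15 libraries, by label. Points are libraries, wide lines are means and thin bars are SD (n = 3). SOX9 and MBP were highest in the 3 GFP libraries, SOX4 was lowest there, and CD44, VIM and CNP stayed within narrow ranges.

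SOX9 had the clearest differences between labels. The gene is on chromosome 17 of GRCh37 from 70117161 to 70122557 on the plus strand. Its level was 21.6, 20.5 and 22.9 CPM in the GFP libraries. It was 6.47, 6.35 and 6.42 CPM under the ID1 label and 4.37, 3.60 and 2.70 CPM under the ID2 label. Under ID3 it was 8.11, 5.98 and 7.40 CPM, and under ID4 it was 10.0, 10.8 and 10.1 CPM. Every ID library was thus below every GFP library, and the lowest counts, 39 to 60 per library, were those labelled ID2. In cultures measured in bulk, fewer cells with SOX9 mRNA and less SOX9 mRNA per cell cannot be told apart.

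Against GFP, SOX9 fell by 1.77 on the log2 scale under the ID1 label (SE 0.13, adjusted p = 9.24e-10), which is 3.41-fold lower. It was 6.03-fold lower under ID2 (log2 fold change -2.59, SE 0.14, adjusted p = 3.41e-12), 3.07-fold lower under ID3 (-1.62, SE 0.13, adjusted p = 2.97e-09) and 2.10-fold lower under ID4 (-1.07, SE 0.12, adjusted p = 1.36e-06). The labels also differed from each other. From low to high the order was ID2, ID1, ID3, ID4 and GFP, and only the neighbours ID1 and ID3 were not called different, at 6.41 ± 0.0582 against 7.16 ± 1.09 CPM (SD, n = 3 each, log2 difference -0.15, adjusted p = 0.565). ID2 was below ID1 by 0.82 on the log2 scale (adjusted p = 9.17e-04), and ID3 was below ID4 by 0.55 (log2 difference -0.55, adjusted p = 0.0125). The last of these calls was lost without ID3 replicate 2 (log2 difference -0.44, adjusted p = 0.0797). Without ID2 replicate 3, the difference of ID2 from GFP was -2.43 (adjusted p = 3.90e-13).

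The 20 tested genes nearest to SOX9 on the chromosome had a median log2 fold change of -0.05, -0.10, -0.05 and -0.09 under the 4 labels, against 0.00 for all tested genes. Single neighbours ranged from -0.85 to 0.44 under ID1 and from -1.82 to 2.14 under ID2. The range was -1.52 to 1.18 under ID3 and -0.53 to 0.61 under ID4. Among the 16 other SOX genes listed, only SOX12, SOX13 and SOX15 passed the filter. None of these 3 was called under any label by edgeR, DESeq2 or limma, with log2 fold changes from -0.28 to 0.17, and only SOX12 under ID3 had an unadjusted p under 0.05. SOX10, the factor of the oligodendrocyte line, had 0 to 2 counts per library.

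SOX4 showed the opposite direction at a much lower number of counts. The gene is on chromosome 6 of GRCh37 from 21593982 to 21598850 on the plus strand, and its promoter stretch with 2 CANNTG matches is printed above. It had 3, 0 and 7 counts in the GFP libraries, around the floor of 3. There were 29, 17 and 14 counts under ID1, 14, 11 and 23 under ID2, 37, 30 and 20 under ID3, and 25, 20 and 29 under ID4. Each ID library was above each GFP library, but the GFP level rests on 10 counts in all.

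The SOX4 level was 0.266 ± 0.297 CPM in GFP, 1.41 ± 0.451 under ID1, 1.12 ± 0.424 under ID2, 2.06 ± 0.538 under ID3 and 1.97 ± 0.201 under ID4 (SD, n = 3 each). The ratio of summed counts to those of GFP, each divided by its library totals, was 5.47 under ID1 (95% counting interval 2.78 to 12), 4.30 under ID2 (2.15 to 9.54), 7.94 under ID3 (4.12 to 17.1) and 7.57 under ID4 (3.89 to 16.4). These intervals leave out the spread between libraries and are no test, since a difference was built into passing the filter. No 2 ID labels were called different for SOX4, and between neighbours in the order ID2, ID1, ID4, ID3 the adjusted p was 0.560 to 0.953. Pairs further apart had lower values. The log2 difference of ID2 was -0.84 from ID3 (adjusted p = 0.133) and -0.79 from ID4 (adjusted p = 0.154). GFP replicate 3 held 7 of the 10 GFP counts. Without it the log2 fold change moved from 2.39 to 3.53 under ID1, from 2.08 to 3.22 under ID2, from 2.92 to 4.06 under ID3 and from 2.87 to 4.01 under ID4. Without ID2 replicate 3 the value for ID2 was 1.74.

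SOX2, the stem cell factor of this set, was present only as a trace. From the gene, on chromosome 3 of GRCh37 from 181429713 to 181432224, there were 0 counts in all 3 GFP libraries, which allows up to 0.211 to 0.251 CPM, and 10 counts over all 15 libraries. The ID libraries held 0, 2 and 0 counts under ID1, 0, 0 and 1 under ID2, 4, 1 and 0 under ID3, and 1, 0 and 1 under ID4. Only 1 library, ID3 replicate 1 with 4 counts, exceeded the floor. No difference was detectable at this depth (two-sided exact permutation test of CPM, p = 0.40 to 1.00 for the 4 labels, where 3 libraries against 3 cannot go below 0.10).

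**Figure D2:**
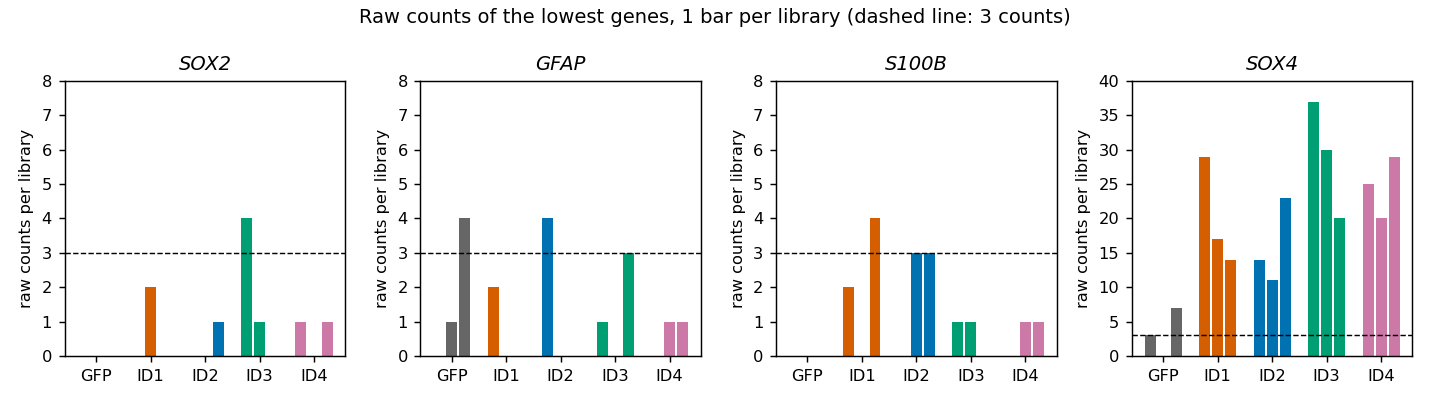
Raw counts per library (vertical axes, each starting at 0) of SOX2, GFAP, S100B and SOX4, with 1 bar per library in the order of its replicate number and the floor of 3 counts dashed. SOX2, GFAP and S100B never exceeded 4 counts in any library, while SOX4 had 11 to 37 counts in the 12 ID libraries and 0 to 7 in the GFP libraries.

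NES, which encodes nestin, was lower under 2 of the 4 labels. Its position is on chromosome 1 of GRCh37 from 156638555 to 156647199 on the minus strand. Its level was 22, 25.9 and 24.6 CPM in GFP. It was 20.5, 17.9 and 16.6 CPM under ID1 and 18.2, 20.1 and 21.2 CPM under ID3, and no library of these 2 labels reached the lowest GFP library. It was 26.5, 21.7 and 24.7 CPM under ID2 and 23.9, 25.3 and 29.8 CPM under ID4, and these 2 labels overlapped with GFP.

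NES fell by 0.41 on the log2 scale under ID1 (SE 0.11, adjusted p = 0.00991) and by 0.31 under ID3 (SE 0.11, adjusted p = 0.0409). Its log2 fold change was 0.02 under ID2 (95% interval -0.20 to 0.25, adjusted p = 0.890) and 0.13 under ID4 (-0.10 to 0.35, adjusted p = 0.465). Between labels, ID1 was lower than ID2 (log2 difference -0.43, adjusted p = 0.00760) and lower than ID4 (-0.53, adjusted p = 0.00426), and ID3 was lower than ID4 (-0.43, adjusted p = 0.0129) and than ID2 (log2 difference of ID2 from ID3 0.33, adjusted p = 0.0435). Of these calls, all but that of ID1 against ID4 hung on single libraries. ID1 against ID2 was lost without ID1 replicate 3 (adjusted p = 0.0504), and ID3 against ID4 without ID3 replicate 1 (0.0795) or ID4 replicate 3 (0.0945). ID2 against ID3 was lost without ID2 replicate 1 (adjusted p = 0.170), ID2 replicate 3 (0.0630), ID3 replicate 1 (0.181) or ID3 replicate 2 (0.0857). The call under ID1 was lost without GFP replicate 2 (adjusted p = 0.0536) or ID1 replicate 3 (adjusted p = 0.0558). The call under ID3 was lost without GFP replicate 2 (adjusted p = 0.153), GFP replicate 3 (0.10), ID3 replicate 1 (0.163) or ID3 replicate 2 (0.0712), and also when library totals alone set the scale (adjusted p = 0.0519).

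VIM, which encodes vimentin, was higher under the ID2 label alone among the comparisons with GFP. Its position is on chromosome 10 of GRCh37 from 17270240 to 17279592 on the plus strand, and had 41595 to 68815 counts per library. Its level was 3942, 3574 and 3481 CPM in GFP and 4594, 4765 and 3968 CPM under ID2. The lowest ID2 library, replicate 3, lay just above the highest GFP library. Under the other labels it was 3700, 3785 and 4034 CPM (ID1), 3999, 3792 and 3775 CPM (ID3) and 3967, 3976 and 3842 CPM (ID4), within or near the GFP range.

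The log2 fold change of VIM under ID2 was 0.29 (SE 0.05, adjusted p = 2.19e-04), or 0.36 without ID2 replicate 3 (adjusted p = 8.43e-07). It was 0.05, 0.05 and 0.10 under ID1, ID3 and ID4 (adjusted p = 0.567, 0.519 and 0.226). VIM was also higher under ID2 than under ID1 (log2 difference of ID1 from ID2 -0.24, adjusted p = 0.00323), ID3 (0.24, adjusted p = 0.00429) and ID4 (0.20, adjusted p = 0.0148). The last was lost without ID2 replicate 1 (adjusted p = 0.0601), ID2 replicate 2 (0.0838) or ID4 replicate 3 (0.0617). The antisense gene VIM-AS1 overlaps VIM on the other strand and had 1094 counts in all, against 798729 for VIM. Whether the counting used strand was not given in the sources used here.

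CD44, the hyaluronan receptor, was lower under the ID2 label. It lies on chromosome 11 of GRCh37 from 35160429 to 35253949 on the plus strand. Its level was 616, 586 and 585 CPM in GFP and 516, 521 and 493 CPM under ID2, and these groups did not overlap. Under ID1 it was 570, 536 and 569 CPM, under ID3 576, 572 and 556 CPM, and under ID4 566, 560 and 573 CPM, also below each GFP library. The log2 fold change was -0.21 under ID2 (SE 0.04, adjusted p = 6.61e-04), and -0.19 without ID2 replicate 3 (adjusted p = 0.00219). Under ID1, ID3 and ID4 it was -0.11, -0.09 and -0.07 (SE 0.04 each) with an adjusted p of 0.0772, 0.133 and 0.249. Of all tested genes, 37.1%, 42.3%, 40.6% and 37.1% had no overlap between GFP and ID1, ID2, ID3 and ID4, so that separation of 3 libraries from 3 was common.

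In the order ID2, ID1, ID4, ID3, GFP, no neighbouring groups were called different for CD44. ID2 was lower than ID4 (log2 difference -0.13, adjusted p = 0.0349). That call was lost when any of 5 libraries was left out, ID2 replicate 1 (adjusted p = 0.0588), ID2 replicate 3 (0.0883), ID4 replicate 1 (0.0954), ID4 replicate 2 (0.0590) or ID4 replicate 3 (0.107).

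The astrocyte genes of the set were at the edge of detection. GFAP lies on chromosome 17 of GRCh37 from 42980527 to 42994305 on the minus strand. It had 0, 1 and 4 counts in GFP, 2, 0 and 0 under ID1, 4, 0 and 0 under ID2, 1, 0 and 3 under ID3, and 0, 1 and 1 under ID4, which is 17 counts in all. CCDC103 overlaps GFAP on the other strand and had 1607 counts over the 15 libraries. S100B lies on chromosome 21 of GRCh37 from 48018517 to 48025121 on the minus strand. It had 0 counts in each GFP library, and 2, 0 and 4 under ID1, 0, 3 and 3 under ID2, 1, 1 and 0 under ID3, and 0, 1 and 1 under ID4, which is 16 counts in all. No label was told apart from GFP for either gene (two-sided exact permutation test of CPM, p = 0.70 for GFAP and p = 0.40 for S100B under each label, smallest possible p 0.10). With the filter on low values removed, the adjusted p by edgeR was 0.655 to 0.905 for GFAP and 0.115 to 0.491 for S100B. The unadjusted p of S100B in that fit was 0.0321 under ID1 and 0.0318 under ID2. It was 0.201 under ID3 and 0.180 under ID4.

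Of the oligodendrocyte genes, MBP was lower under every ID label. It lies on chromosome 18 of GRCh37 from 74690783 to 74845639 on the minus strand, and the stretches before 2 of its starts are printed above. It had 63, 62 and 58 counts in GFP, or 4.44, 5.14 and 4.85 CPM. Under ID1 it had 19, 9 and 15 counts, under ID2 12, 14 and 9, under ID3 9, 9 and 12, and under ID4 26, 7 and 12. The GFP libraries were above all ID libraries, the highest of which was ID4 replicate 1 at 1.99 CPM. The files give 1 value per gene, so the products of the separate MBP starts could not be told apart.

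The log2 fold change of MBP was -2.24 under ID1 (SE 0.29, adjusted p = 5.54e-06), -2.52 under ID2 (SE 0.30, adjusted p = 9.71e-07), -2.75 under ID3 (SE 0.31, adjusted p = 7.10e-07) and -1.99 under ID4 (SE 0.29, adjusted p = 2.58e-05). Without ID4 replicate 1 the value under ID4 moved to -2.61 (adjusted p = 4.75e-06), and without ID2 replicate 3 the value under ID2 was -2.36 (adjusted p = 3.33e-06). From low to high the order was ID3, ID2, ID1, ID4 and GFP, at 0.721 ± 0.154, 0.822 ± 0.179, 1.02 ± 0.304, 1.18 ± 0.720 and 4.81 ± 0.352 CPM (SD, n = 3 each). Neighbouring ID labels were not called different (adjusted p = 0.669 to 0.819). Nor were ID3 and ID4, the lowest and highest of them (log2 difference -0.75, adjusted p = 0.246).

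CNP, the other oligodendrocyte gene, was not called different from GFP under any label. It lies on chromosome 17 of GRCh37 from 40118781 to 40129758 on the plus strand. Its level was 325, 348 and 360 CPM in GFP, 347, 356 and 341 CPM under ID1, 342, 289 and 320 CPM under ID2, 364, 313 and 343 CPM under ID3, and 330, 350 and 342 CPM under ID4. All 5 groups overlapped. The log2 fold change was 0.00, -0.10, -0.04 and -0.02 under ID1 to ID4 (adjusted p = 0.993, 0.220, 0.685 and 0.880), and the 95% intervals together ran from -0.23 to 0.13. DNAJC7 overlaps CNP on the other strand, with 58710 counts over all libraries against 68151 for CNP. Reads of these genes cannot be told apart unless the counting used strand.

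**Figure D3:**
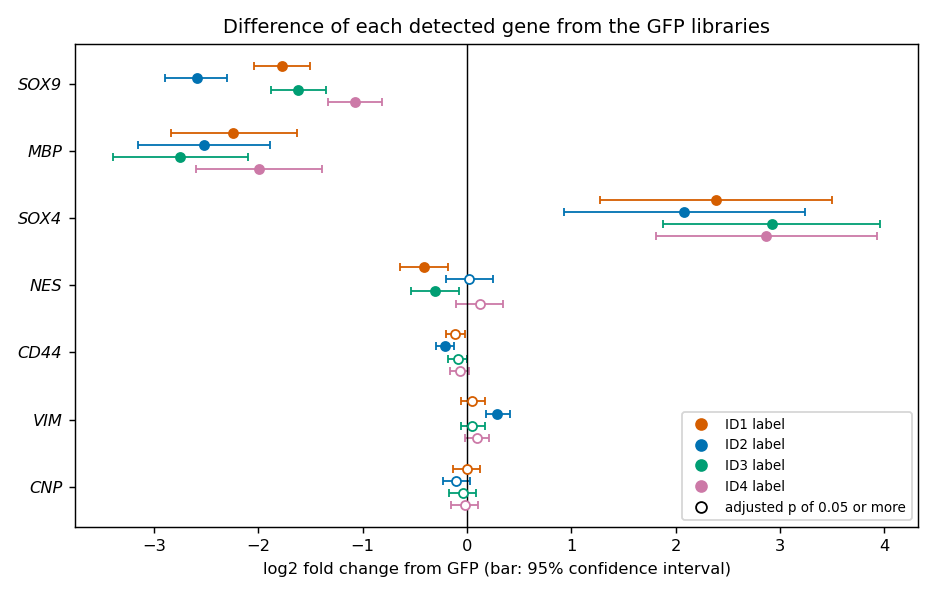
Log2 fold change of each detected gene from the GFP libraries (horizontal axis) under the 4 ID labels, with 95% confidence intervals from edgeR's fit. Filled points had an adjusted p under 0.05, which for SOX4 is no test since it passed the filter only through the ID groups. SOX9 and MBP lie left of 0 and SOX4 right of 0 under every label, whereas the values of NES, CD44, VIM and CNP stay between -0.41 and 0.29.

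Between the ID labels, SOX9, NES, VIM and CD44 supplied all called differences among the detected members. Between ID1 and ID3 none of the 7 was called by edgeR, DESeq2 or limma, and none had an unadjusted p under 0.05, while 9.18% of all tested genes were called. Between ID1 and ID2, NES, SOX9 and VIM were called (18.6% of all genes), and between ID1 and ID4, NES and SOX9 (4.87%). Between ID2 and ID3, NES, SOX9 and VIM were called (15%), between ID2 and ID4, SOX9, CD44 and VIM (18.6%), and between ID3 and ID4, NES and SOX9 (11.3%). Over all 5 groups together, each of the 6 members other than SOX4 differed except CNP (CNP adjusted p = 0.537), which was true of 44.8% of tested genes.

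Among all tested genes, those whose profile over the 15 libraries was most like that of the members with the widest range of group means were named by Pearson's r of log2 CPM, as a description. The libraries share their group labels, so that r mostly reflects the 5 group levels. For SOX9 they were COL13A1, a transmembrane collagen (r = 0.973), PREX1, an exchange factor for Rac (r = 0.972), and SPRY2, a feedback inhibitor of receptor tyrosine kinase signaling (r = 0.971). For SOX4 they included BIN1, a membrane-bending adaptor (r = 0.922), and MFGE8, a secreted bridge between dying cells and phagocytes (r = 0.901). For MBP they were TIPARP, a target of the aryl hydrocarbon receptor (r = 0.929), TDP1, a DNA repair enzyme (r = 0.929), and ASNS, the enzyme of asparagine synthesis (r = 0.923).

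Other genes of the same programs were taken from fixed lists and described by counts. Of 24 further genes of neural and glioma stem cells, 13 were tested. For 2 of these, KLF4 and POU3F2, a group mean lay below the limit of the filter, so that a difference was built into their passing. Of the other 11, 2 rose under ID1, 3 rose and 2 fell under ID2, and 2 rose under ID3. The shares of all tested genes called in either direction were 22.1%, 35.1% and 28.6%. The genes that fell under ID2 were ITGA6 (log2 fold change -1.14) and MYC (-0.49). Besides PAX6 and EZH2, described below, GLI1 rose under ID2 (0.77) and BMI1 under ID3 (0.23). Under ID4 none of the 11 was called by edgeR, DESeq2 or limma or had an unadjusted p under 0.05, with 21.6% of all genes called. The median log2 fold change of the 11 was 0.10, 0.03, -0.06 and 0.10 under the 4 labels, with 0.00 for all genes. PROM1, which encodes the stem cell surface marker CD133, had 0 to 2 counts per library, and OLIG2, a factor of glioma stem cells and of the oligodendrocyte line, had 2 to 11.

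KLF4, a pluripotency factor, was at 4.86, 2.90 and 2.59 CPM in GFP. It was at 0.990, 1.72 and 2.24 CPM under ID1, 1.02, 0.831 and 0.208 CPM under ID2, 1.32, 1.07 and 0.972 CPM under ID3, and 2.45, 1.53 and 2.04 CPM under ID4, each below the lowest GFP library. POU3F2, a neural factor of glioma stem cells, was at 0.493, 0.331 and 0.418 CPM in GFP. It was at 1.39, 0.897 and 1.64 CPM under ID1, 1.18, 0.711 and 1.05 CPM under ID3, and 0.920, 0.631 and 0.832 CPM under ID4. These 3 labels had no overlap with GFP, while its ID2 libraries overlapped. Such separation from GFP was seen for 37.1% to 42.3% of all tested genes, by label. PAX6, a factor of neural progenitors, rose under ID1, ID2 and ID3. Its level went from 9.88 ± 1.34 CPM to 15.3 ± 1.15 and 15.2 ± 0.149 CPM under ID1 and ID2 (SD, n = 3 each, log2 fold change 0.61 and 0.63, adjusted p = 3.78e-04 and 1.45e-04). Under ID3 the log2 fold change was 0.40 (adjusted p = 0.0125), a call that was lost without GFP replicate 3 (0.0818). EZH2, a histone methyltransferase, rose by 0.26 under ID1 and by 0.19 under ID2 on the log2 scale (adjusted p = 0.00524 and 0.0250), and the call under ID2 was lost without GFP replicate 1 (0.135) or ID2 replicate 2 (0.0764).

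Of 16 further astrocyte genes, 10 were detected and 9 were tested. Under ID1, 4 rose and 2 fell. Under ID2 all 9 were called, 7 higher and 2 lower, under ID3 4 rose and 2 fell, and under ID4 4 rose and 3 fell. The share of all tested genes called in either direction was 22.1%, 35.1%, 28.6% and 21.6% under ID1 to ID4. Their own median log2 fold change was 0.28, 0.67, 0.28 and 0.16. CRYAB, a small heat shock protein of astrocytes, was at 0.916, 1.24 and 2.01 CPM in GFP and at 11.7, 11.2 and 12.4 CPM under ID2, and rose under all 4 labels (log2 fold change 2.59, 3.12, 2.74 and 2.19, adjusted p at most 1.40e-07). CLU, which encodes the secreted chaperone clusterin, rose under all 4 (0.45, 0.68, 0.53 and 1.06, adjusted p at most 0.00529). ALDOC, the brain form of aldolase, fell under all 4 (-0.76, -0.73, -0.59 and -0.88, adjusted p at most 7.47e-04). NFIX, a factor of the nuclear factor I family, fell as well (-0.36, -0.36, -0.24 and -0.25). The calls of NFIX under ID3 and ID4 were lost without GFP replicate 2 (adjusted p = 0.0553 and 0.0527), under ID3 also without GFP replicate 3 (0.0534) and under ID4 also without ID4 replicate 2 (0.0570). The water channel gene AQP4, a defining astrocyte marker, had 0 counts in every library.

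Of 19 further genes of the oligodendrocyte line, 5 were tested. Under ID1, ID3 and ID4, 2 rose and 1 fell, and under ID2, 3 rose and 2 fell, with a median log2 fold change of -0.03, 0.18, 0.11 and 0.11 under ID1 to ID4. Of all tested genes, 22.1%, 35.1%, 28.6% and 21.6% were called in these comparisons. CSPG4, the NG2 proteoglycan of precursors, was at 37.6 ± 1.32 CPM in GFP and at 61.4 ± 4.14, 74.9 ± 7.76 and 58.3 ± 2.21 CPM under ID1, ID3 and ID4 (SD, n = 3 each, log2 fold change 0.69, 0.97 and 0.63, adjusted p at most 4.29e-05). Under ID2 it was called higher as well (0.27, adjusted p = 0.0342), which was lost without GFP replicate 1 (0.0561), GFP replicate 2 (0.0859), GFP replicate 3 (0.0938) or ID2 replicate 3 (log2 fold change 0.13, adjusted p = 0.270). ENPP2, which encodes autotaxin, rose under all 4 labels (0.64, 0.68, 0.41 and 0.49, adjusted p at most 5.60e-04). PDGFRA, the growth factor receptor of precursors, fell under ID2 and ID3 (-2.11 and -1.54, adjusted p = 1.40e-05 and 3.17e-04) and had values of -0.63 and -0.49 under ID1 and ID4 (adjusted p = 0.0919 and 0.205). UGT8, an enzyme of myelin lipids, fell under ID1, ID2 and ID4 (-0.27, -0.42 and -0.38, adjusted p = 0.0481, 0.00208 and 0.00834). The call under ID4 was lost without GFP replicate 3 (0.0537) and that under ID1 without any of 4 libraries, GFP replicate 2 (0.142), GFP replicate 3 (0.224), ID1 replicate 2 (0.173) or ID1 replicate 3 (0.101). MOG, a defining gene of mature myelin, was at or near 0, with 0 to 2 counts per library.

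**Figure D4:**
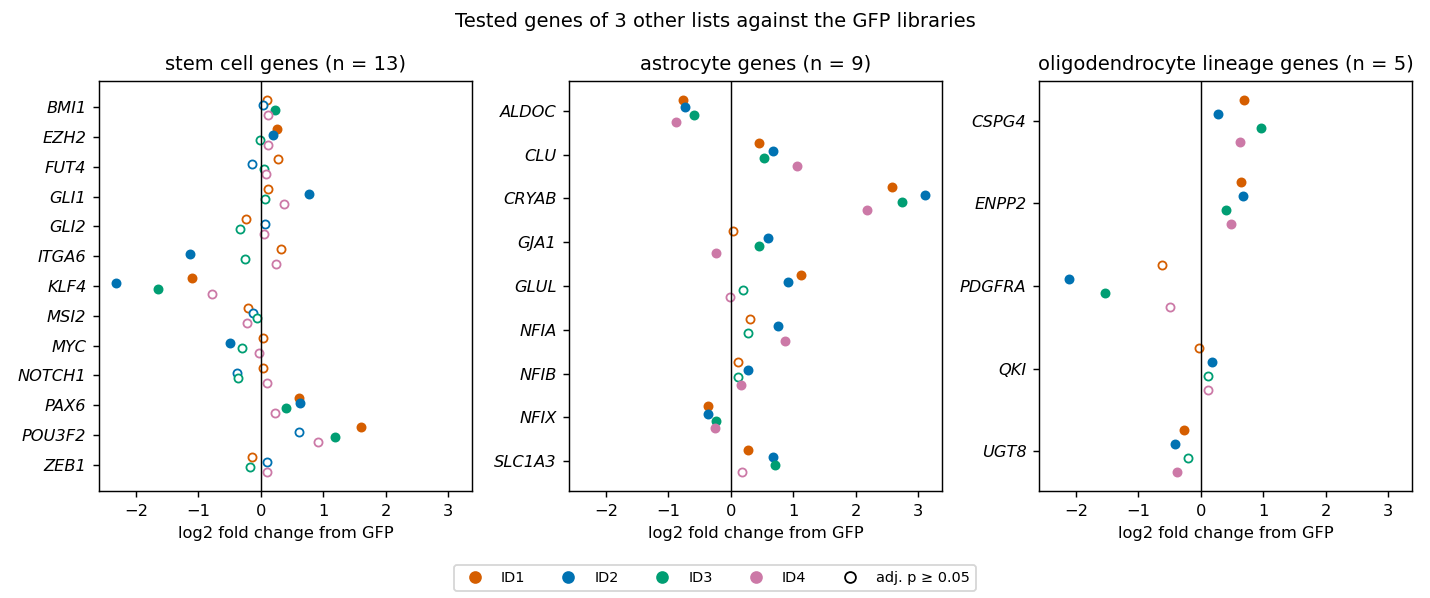
Log2 fold change from GFP (horizontal axes) of each tested gene of 3 further lists, stem cell genes (n = 13), astrocyte genes (n = 9) and oligodendrocyte lineage genes (n = 5), by ID label. Filled points had an adjusted p under 0.05, which for KLF4 and POU3F2 is no test, since a difference was built into their passing the filter. CRYAB lies between 2.19 and 3.12 under all labels, ALDOC between -0.88 and -0.59, and KLF4 and PDGFRA are lowest under ID2.

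Of 13 genes for other intermediate filaments and their linker plectin, 4 were tested. Of these, 1 fell under ID1, 1 rose and 2 fell under ID2, and 1 rose and 1 fell under ID3, with 22.1%, 35.1% and 28.6% of all tested genes called. Under ID4 none of them was called by edgeR, DESeq2 or limma or had an unadjusted p under 0.05. LMNB1, which encodes lamin B1, fell under ID1, ID2 and ID3 (log2 fold change -0.21, -0.26 and -0.23, adjusted p = 0.00765, 9.49e-04 and 0.00370). LMNB2, which encodes lamin B2, fell under ID2 (-0.19, adjusted p = 0.00539). PLEC was called higher under ID2 and ID3 (0.40 and 0.42). The call under ID2 was lost without GFP replicate 3 (adjusted p = 0.102) or ID2 replicate 3 (0.151) and by DESeq2 (0.0596), and the call under ID3 without GFP replicate 3 (0.0896), ID3 replicate 1 (0.0647) or ID3 replicate 2 (0.0831) and by DESeq2 (0.0519).

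Genes around CD44 were listed too. Of 11 genes for the synthesis of hyaluronan, other ligands, and proteins that act with CD44, 9 were tested. Of these, 5 rose under ID1, 5 under ID2, 3 under ID3 and 5 under ID4, and 1 fell, under ID2, with 22.1%, 35.1%, 28.6% and 21.6% of all tested genes called in either direction. Their median log2 fold change was 0.26, 0.26, 0.15 and 0.27. HAS1, a hyaluronan synthase, was at 52.4, 49.4 and 55.6 CPM in GFP. It was at 223, 209 and 215 CPM under ID1, 272, 290 and 268 CPM under ID2, 241, 247 and 229 CPM under ID3 and 157, 168 and 174 CPM under ID4, with no overlap with GFP (log2 fold change 2.03, 2.42, 2.17 and 1.66, adjusted p at most 9.12e-15). HAS2, another hyaluronan synthase, rose under ID1 and ID3 (1.17 and 1.26, adjusted p = 2.70e-04 and 9.28e-05) and had values of 0.30 and 0.27 under ID2 and ID4 (adjusted p = 0.320 and 0.454). SPP1, which encodes the CD44 ligand osteopontin, rose under all 4 labels (0.86, 0.84, 0.77 and 0.77, adjusted p at most 2.43e-04). EZR, which encodes ezrin, the linker of CD44 to the actin cytoskeleton, rose under ID1, ID2 and ID4 (0.28, 0.26 and 0.27, adjusted p = 0.00492, 0.00497 and 0.00814). The calls under ID2 and ID4 were lost without GFP replicate 3 (adjusted p = 0.0510 and 0.0709).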

How the data were processed

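Lexogen QuantSeq 3′ libraries were processed by eBiogen. The submitters' processing notes name Bowtie2, BWA and hg19 (GRCh37), while counter, annotation and strand setting were not given in the sources used here. The authors deposited raw counts per gene and normalized log2 values for 15 libraries of 11089044 to 15148979 counts. Of 25737 rows, the 12870 in the upper 50% by mean deposited log2 value (3.22 or more) were tested with edgeR 4.0.16 in R 4.3.3 on the counts (TMM, quasi-likelihood, all libraries in 1 fit with a mean for each group), with Benjamini-Hochberg adjustment at 0.05, after a check on simulated counts. The equal-variance test of the methods was not used because counts were deposited. Alternatives were DESeq2 1.42.0, limma 3.58.1, other filters, library totals, a replicate block, only the 2 groups compared, a fold threshold and leaving out each library. Exact tests used scipy 1.17.1 and plots matplotlib 3.10.9 (Python 3.11.15).

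The members and lists were chosen with earlier results of these data known. Named were the members, ID1 to ID4, of each list the at most 4 tested genes called in most comparisons with GFP, and 3 genes most like each of the 3 members with the widest range, of which some results are not reported here. SOX10, SOX12, SOX13, SOX15, PROM1, OLIG2, ITGA6, MYC, GLI1, BMI1, AQP4, GJB6, SLC1A3, GJA1, GLUL, MOG and HBB were named after their values were seen. Replicates' origins were not given, so p-values measure the spread between libraries, which may be technical. Positions are from GENCODE on GRCh37.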

Additional observations from a re-analysis of the deposited data

Results flagged for a closer look

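The difference from GFP varied between ID labels for 4 members, by edgeR's test of the difference between the labels. The shared GFP libraries cancel in that test. For SOX9, the log2 difference was 0.82 between ID1 and ID2, -0.70 between ID1 and ID4, -0.97 between ID2 and ID3, -1.52 between ID2 and ID4, and -0.55 between ID3 and ID4 (adjusted p from 2.47e-07 to 0.0125). For NES it was -0.43 between ID1 and ID2, -0.53 between ID1 and ID4, 0.33 between ID2 and ID3, and -0.43 between ID3 and ID4 (adjusted p from 0.00426 to 0.0435). For VIM it was -0.24 between ID1 and ID2, 0.24 between ID2 and ID3, and 0.20 between ID2 and ID4 (adjusted p from 0.00323 to 0.0148). The VIM libraries overlapped in each of these pairs, through ID2 replicate 3. For CD44 it was -0.13 between ID2 and ID4 (adjusted p = 0.0349). Several of these calls hung on single libraries, as given above. They were the CD44 call, the NES calls except ID1 against ID4, SOX9 for ID3 against ID4, and VIM for ID2 against ID4. For VIM, ID2 against ID3 reached an adjusted p of 0.0519 under an alternative fit. The causes of these differences were not tested.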

How the results depend on the processing

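The 41 results named for members had 557 values under the alternatives, of which 515 kept both direction and side of the threshold, 31 lost the call, none gained one, and 11 changed sign. These values leave out the fold threshold, which was applied to counts of calls. They include those of SOX4 against GFP. Its calls were all kept but are no test, since a difference was built into its passing the filter. SOX9 and MBP against GFP kept their calls under every alternative in which they were fitted, the fold threshold included. CD44 and VIM for ID2 against GFP kept theirs except under the fold threshold, where their values of -0.21 and 0.29 do not pass. The upper 25% of genes (6436) held only NES, CD44, VIM and CNP. The sign changes were of values near 0 that were never called. With each library left out in turn, NES for ID2 against GFP ran from -0.05 to 0.10 (-0.05 without GFP replicate 1 and -0.04 without ID2 replicate 1), and CNP from -0.05 to 0.04 for ID1, -0.09 to 0.01 for ID3 and -0.07 to 0.02 for ID4 (changed signs at -0.05 and -0.02, at 0.01, and at 0.02 and 0.00). CNP for ID1 was -0.00 with filterByExpr, no filter, DESeq2 and only the 2 groups.

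Requiring a log2 fold change over 1 left 384, 569, 376 and 323 calls against GFP in the order ID1 to ID4, and 155, 64, 72, 151, 214 and 105 for ID1 against ID2, ID1 against ID3, ID1 against ID4, ID2 against ID3, ID2 against ID4 and ID3 against ID4, with main counts of 2849, 4519, 3685, 2775, 2398, 1181, 627, 1935, 2394 and 1450. It left 3 members for ID2 against GFP, namely SOX9, MBP and SOX4, of which the SOX4 call is no test. There was 1 for ID2 against ID4, and 0 for ID1 against ID2, ID1 against ID4, ID2 against ID3 and ID3 against ID4. With the upper 25% of genes, 1, 2, 1 and 0 members were called for ID1 to ID4 against GFP, 1 for ID1 against ID4, 1 for ID3 against ID4 and 3 for any difference. With only the 2 groups fitted, 1064 genes were called for ID1 against ID4 and 1073 for ID2 against ID3, and 1 member each for ID2 against ID3 and ID2 against ID4. Leaving out each library gave 634 to 1165 genes for ID1 against ID3, 363 to 423 for ID1 against ID4 and 800 to 1377 for ID3 against ID4, and 1 to 2 members for both ID2 against ID4 and ID3 against ID4. The causes of these changes were not tested. The stricter filter held only 4 of the 7 detected members, and the smaller fits had fewer libraries.

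The labels number libraries 1 to 3 in each group without saying that numbers are shared. Deviations of same-numbered libraries correlated between -0.23 and 0.23 over 30 pairs across genes, so the numbers were taken as names. With the replicate block, the calls against GFP numbered 2713, 4362, 3517 and 2585 in the order ID1 to ID4. NES then had an adjusted p of 0.0526 under ID3 and 0.0587 for ID2 against ID3, and the block changed no other member's call. NES for ID2 against ID3 was lost under 7 alternatives in all (adjusted p up to 0.181). For the listed genes, 57 of 1155 values lost the call, over 16 of 85 called results, and none changed sign. Calls of KLF4 and POU3F2 are counted there, though they are no test, since a difference was built into the passing of both genes. Library totals moved the median gene by at most 0.04 on the log2 scale. Depth limits SOX2, GFAP and S100B, where 3 counts equal 0.198 to 0.271 CPM, and SOX4 in GFP.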

Other observations

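The S100 family, to which the astrocyte gene S100B belongs, was represented by 15 further listed genes, of which 10 were tested. Of these, 3 rose and 1 fell under ID1, 6 rose and 1 fell under ID2, 5 rose and 2 fell under ID3, and 5 rose and 1 fell under ID4, with 22.1%, 35.1%, 28.6% and 21.6% of all tested genes called in either direction. S100A3 was at 42.8 ± 2.15 CPM in GFP and at 65.3 ± 3.90, 72.5 ± 8.90, 71.4 ± 1.09 and 73.0 ± 1.62 CPM under ID1 to ID4 (SD, n = 3 each, adjusted p at most 6.18e-06). S100A2 rose under all 4 labels (log2 fold change 0.73, 0.37, 0.68 and 0.97, adjusted p at most 2.44e-05), and so did S100A4, a protein of mesenchymal cells (0.34, 0.43, 0.82 and 0.75, adjusted p at most 0.00473). S100A16 was lower under all 4 labels (-0.53, -0.21, -0.36 and -0.21, adjusted p = 4.02e-06, 0.0158, 3.56e-04 and 0.0324). Its call was lost under ID2 without GFP replicate 1 (0.0609), ID2 replicate 1 (0.0546) or ID2 replicate 2 (0.0964), and under ID4 without GFP replicate 1 (0.107), GFP replicate 2 (0.0902), ID4 replicate 2 (0.0794) or ID4 replicate 3 (0.153).

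Of 8 neuron markers, 4 were tested, and 2 rose and 2 fell under ID1, 3 rose under ID2, and 1 rose and 1 fell under both ID3 and ID4, with the same shares of all tested genes called as above. SNAP25, a protein of synaptic vesicle fusion, was at 9.79, 6.13 and 9.29 CPM in GFP and at 32.4, 30.1 and 21 CPM under ID2 (log2 fold change 1.73, adjusted p = 2.50e-07). It rose by 0.82 and 1.08 under ID1 and ID3 (adjusted p = 0.00468 and 2.52e-04) and had a value of 0.47 under ID4 (adjusted p = 0.117). MAP2, a microtubule-associated protein of dendrites, rose under ID1, ID2 and ID4 (1.34, 0.84 and 0.95, adjusted p at most 1.66e-04). TUBB3, a neuronal tubulin, fell under ID1, ID3 and ID4 (-0.24, -0.29 and -0.22, adjusted p at most 0.00735), and was called higher under ID2 (0.15, adjusted p = 0.0494). The ID2 call was lost without GFP replicate 2 (0.213), GFP replicate 3 (0.127) or ID2 replicate 3 (0.239), and with filterByExpr, no filter, library totals, DESeq2, the replicate block and a fit of only these groups (0.0556 to 0.151). GAP43, a protein of growing axons, fell under ID1 (-0.92, adjusted p = 0.00614).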
